A study of Arabidopsis thaliana with 7 samples.

Results

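MSRB6 (AT4G04840) and MSRB9 (AT4G21850) are 2 Arabidopsis thaliana genes for methionine sulfoxide reductases of the B type. They were chosen by annotation, as the genes measured by the probe sets 255298_at and 254387_at, and are 2 of the 13286 genes that had a probe set of their own on the array. Both drew attention because their signals were higher after bacterial treatment in an earlier pass over these same arrays, so that difference is described here and supports nothing. Oxidants turn methionine in proteins into methionine sulfoxide, which exists in an S and an R form. A-type reductases (MSRA) reduce the S form and B-type reductases (MSRB) the R form, and the oxidised enzymes are then reset by thioredoxins or glutaredoxins. Plants carry many MSRB copies, which differ in their place in the cell, and several respond to stress.

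Whole rosettes were taken from plants 14 days old, and their RNA was measured on 7 one-colour ATH1 arrays, 1 for each group. Wild-type Col-0 received either MgCl2, called mock here, or Pst-DC3000. The latter is a coronatine-producing strain of the leaf pathogen Pseudomonas syringae, and coronatine mimics jasmonate. T-DNA knockouts of WRKY18, WRKY40, WRKY60 and WRKY53, transcription factors that bind W-box DNA, and a WRKY18/40 double knockout received Pst-DC3000 and have no mock array. All plants grew at 70% humidity with 10 hours of light, in soil that held the insecticide imidacloprid. The insertion alleles, the number of lines and plants behind each array and the time from treatment to harvest are not given in the sources used here. With 1 array per group there is no replicate error, no p-value was computed, and no difference between 2 arrays can be told apart from differences between plants, RNA preparations or hybridisations.

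The label of the wrky53 array was checked by WRKY53 itself, whose signal was 3.07 there and 79.3 to 141 (140.8) on the remaining Pst arrays. WRKY18, WRKY40 and WRKY60 were not checked in this way, because no probe set named for 1 of these genes alone was used here. The Calvin cycle genes SBPASE and PRK, looked up after the data were seen, had signals of 962 to 1573 and 1053 to 1756 on the 7 arrays, so that these markers of green tissue were present throughout. Both were highest on the mock array and lowest on the double mutant array, and the cause of that was not tested. PYK10, a beta-glucosidase known mainly from roots and young seedlings, had signals of 365 (364.5) on the mock array and 578 to 892 on the Pst arrays, so it also differed in the direction of MSRB6 and MSRB9, and its part in their difference was not tested. The wrky60 array stood apart: the 40th percentile of its signals was 31.3, against 20.1 to 21.6 on the others, and values from it are given with that in mind.

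MSRB6 had a signal of 46.5 on the wild-type mock array and 249 (249.2) on the wild-type Pst array. Its signal was 223 (222.8) on the wrky18 array, 151 (151.1) on the wrky40 array, 122 (122.5) on the double mutant array, 280 (279.6) on the wrky53 array and 196 (196.1) on the wrky60 array. The mock array was thus the lowest, from which nothing is read, because the gene was picked for being higher after Pst. Among the 6 Pst arrays the double mutant was lowest and wrky53 highest. The neighbours in this order cannot be ranked against each other, because no group has a second array.

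MSRB9 had a signal of 87.8 on the mock array and 596 (596.4) on the wild-type Pst array. It was 651 (650.7) on the wrky18 array, 604 (604.4) on the wrky40 array, 887 (887.3) on the double mutant array, 614 (613.5) on the wrky53 array and 782 (782.2) on the wrky60 array. Again the mock array was the lowest, from which nothing is read for the same reason. Here the wild type was the lowest of the Pst arrays and the double mutant the highest. The wild type, wrky40 and wrky53 lay next to each other, and wrky60 and the double mutant had the highest values.

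**Figure D1:**
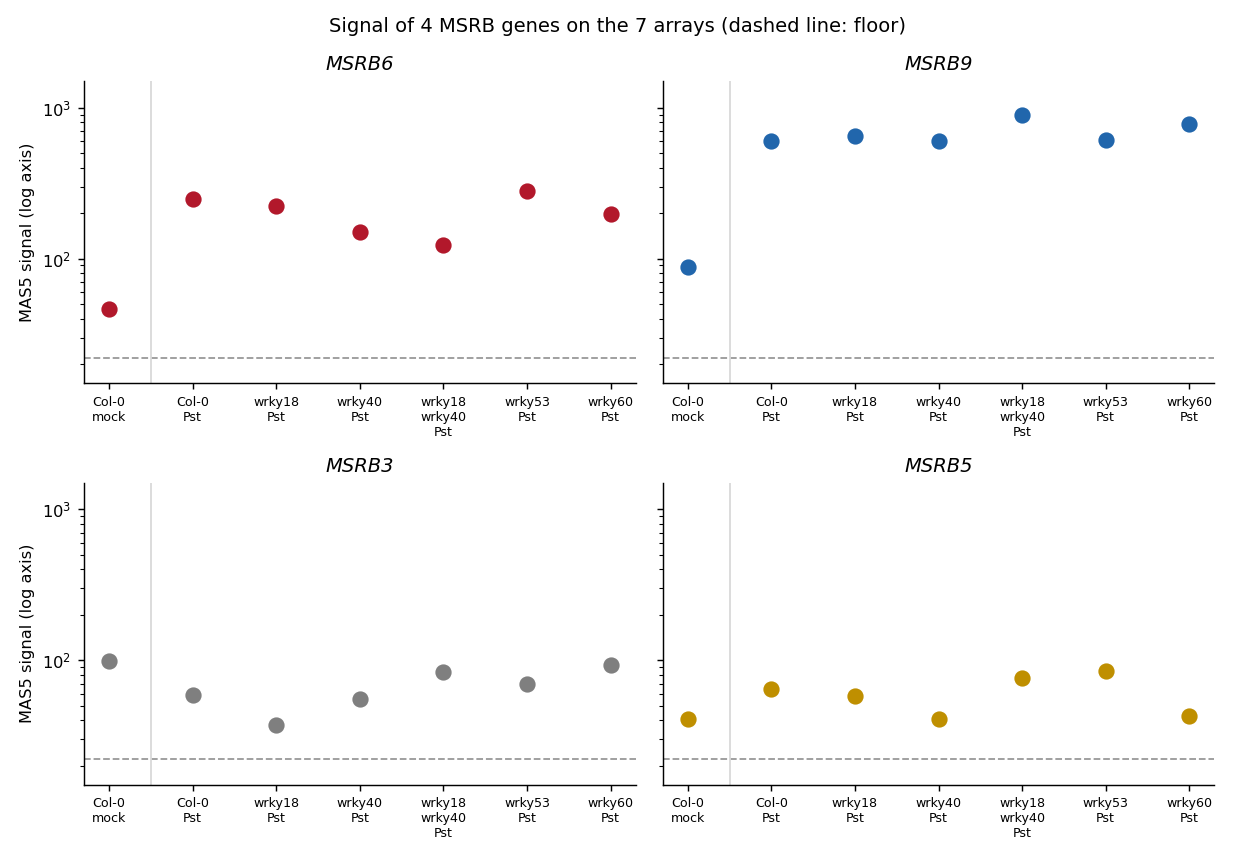
Signal (MAS5, log axis) of MSRB6, MSRB9, MSRB3 and MSRB5 on each of the 7 arrays, 1 point per array, with the floor of 22.1 as a dashed line. MSRB6 and MSRB9 are lowest on the mock array, MSRB3 is highest there, and on the double mutant array MSRB6 (122.5) is the lowest and MSRB9 (887.3) the highest of their Pst signals.

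The wild type after Pst was first compared with the wild type after mock, with 1 array each, and the cause of a difference between them was not tested. MSRB6 was 5.36-fold higher after Pst (log2 ratio 2.42) and MSRB9 6.79-fold higher (log2 ratio 2.76). In RNA from whole rosettes, more transcript per cell and more cells that express the gene cannot be told apart. Signals under a floor of 22.1, which is the 40th percentile averaged over arrays, were set to that floor before taking log2. No signal of MSRB6 or MSRB9 was below it. At least 2-fold higher on the wild-type Pst array were 137 of the 13286 genes, or 1.03%, and these 137 made up 1.89% of the 7259 genes whose mean signal reached the floor. Among those 7259 genes, whose median log2 ratio was 0.01, MSRB9 had the 7th highest ratio and MSRB6 the 12th. Since the genes were picked for this contrast, nothing is read from that rank.

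On every Pst array both genes lay at least 2-fold above the mock array, as did 62 of 13286 genes (0.467%). MSRB9 was 6.79-fold to 10.1-fold above the mock array, and the smallest of its 6 ratios was the 3rd highest such value of any gene. MSRB6 was 2.64-fold to 6.02-fold above, and its smallest ratio, on the double mutant array, ranked 34th. All of these ratios use the same mock array, so its error is shared by them. The smallest ratio of MSRB9 was the one of the wild type. Both genes were picked for being higher after Pst, so nothing is read from these ranks either.

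**Figure D2:**
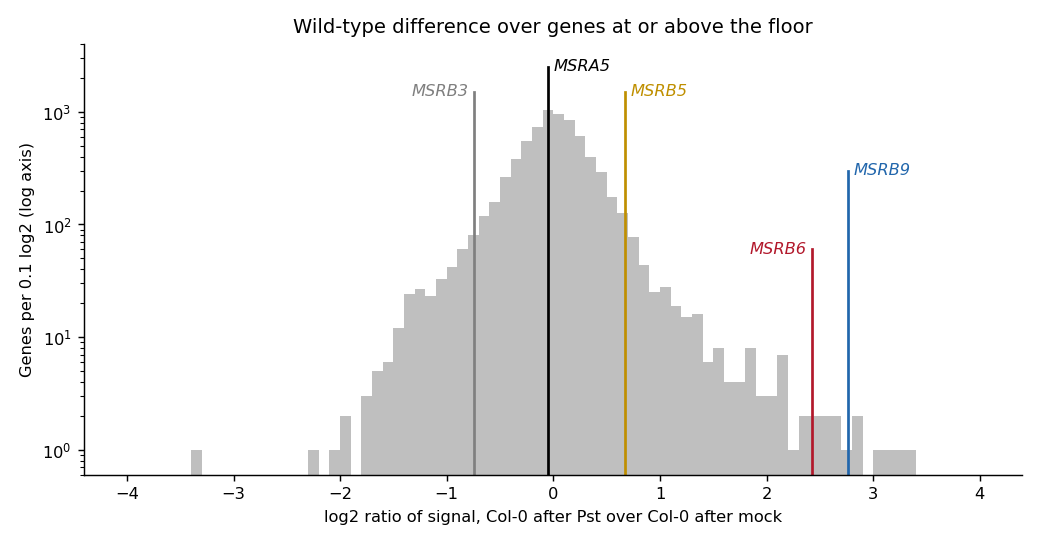
Distribution of the log2 ratio of the wild type after Pst over the wild type after mock for the 7259 genes whose mean signal reached the floor, as genes per 0.1 log2 unit on a log axis. Vertical lines mark MSRB6 at 2.42 and MSRB9 at 2.76 in the upper tail, MSRB5 at 0.67, MSRA5 at -0.05 and MSRB3 at -0.74.

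The gene table holds 9 genes whose symbol starts with MSRB, of which 4 had a probe set of their own, and the other 5 were not analysed here. Apart from MSRB6 and MSRB9 these were MSRB3, an endoplasmic reticulum enzyme linked to cold tolerance, and MSRB5. MSRB3 had a signal of 98.2 on the mock array, 58.7 on the wild-type Pst array, 37.5 on wrky18, 55.4 on wrky40, 83.7 on the double mutant, 69.4 on wrky53 and 93.5 on wrky60. It was therefore highest on the mock array, the opposite of MSRB6 and MSRB9, and 1.67-fold lower after Pst in the wild type. It reached 2-fold lower than mock only on the wrky18 array, by 2.62-fold, and on that array the log2 ratio of -1.39 became -0.70 with the floor at the 60th percentile, which lies above the signal.

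MSRB5 had a signal of 40.7 on the mock array, 64.8 on the wild-type Pst array, 58.1 on wrky18, 41.1 on wrky40, 76.7 on the double mutant, 84.3 on wrky53 and 42.8 on wrky60. It was 1.59-fold higher after Pst in the wild type, while wrky40 and wrky60 lay next to the mock array. Their log2 ratios to mock were 0.02 and 0.07, and both were below 0 under median centring or quantile normalization, that of wrky60 also under cyclic loess. Only wrky53 reached 2-fold, at 2.07-fold, and its log2 ratio ranged from 0.48 to 1.05 over the settings tried. In the wild type MSRB3 was lower and MSRB5, MSRB6 and MSRB9 higher after Pst under all 9 settings, 3 of which cannot change these values. For MSRB5 the log2 ratio fell from 0.67 to 0.09 with the floor at the 60th percentile. MSRA5, the only A-type gene of 5 with a probe set of its own, had signals of 77.6 to 93.4 on all 7 arrays and a log2 ratio of -0.05 in the wild type.

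In the gene table MSRB6 stands in a row with MSRB3, MSRB4 and MSRB5, and MSRB9 in another with MSRB7, MSRB8 and MSRB2. A probe set within such a tandem family can also bind the transcripts of near-identical copies, and the probe sequences were not analysed here, so the values belong to the probe sets and are uncertain as to single copies. The pseudogene AT4G04820, which lies between MSRB4 and MSRB5, had signals below the floor on all 7 arrays, with a highest value of 5.59. The neighbouring genes were taken as the 4 nearest protein-coding genes with a probe set of their own on each side, a choice made after the data were seen. Around MSRB6, 6 of 8 such neighbours reached the floor in the mean. Their wild-type log2 ratios lay between -0.74 and 0.67, with MSRB3 and MSRB5 as the extremes, and a median of -0.35. Around MSRB9, 4 of 8 reached the floor, with log2 ratios from -0.71 to 0.07 and a median of -0.22. Of these neighbours, 0 were at least 2-fold higher on the wild-type Pst array, against a background of 1.89% of genes at or above the floor.

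Each mutant was next set against the Pst-treated wild type, which asks whether the signal differed where a WRKY factor was missing. Relative to the wild type, MSRB6 was 2.03-fold lower on the double mutant array (log2 ratio -1.02) and 1.65-fold lower on the wrky40 array (-0.72). It was 1.12-fold lower on the wrky18 array (-0.16) and 1.27-fold lower on the wrky60 array (-0.35, but -0.67 with median centring). On the wrky53 array it was 1.12-fold higher (log2 ratio 0.17). The signal of MSRB6 was thus below the wild type on 4 of 5 mutant arrays, and reached 2-fold on the double mutant array alone. All 5 ratios share the wild-type Pst array, and the gene was picked for being higher after Pst, so nothing is read from that count. Of the 137 genes at least 2-fold higher on that array, many also lay below it on the mutant arrays. They numbered 81 on wrky18, 96 on wrky40, 93 on the double mutant, 40 on wrky53 and 57 on wrky60.

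Against the wild type after Pst, 11 of 13286 genes, or 0.0828%, were at least 2-fold lower in the double mutant. MSRB6 was 1 of them, with the 9th lowest of the 7259 ratios. The same share was 0.331% on wrky18, 0.0828% on wrky40, 0.504% on wrky53 and 2.36% on wrky60. That position is close to the 2-fold line: the log2 ratio was -0.99 with cyclic loess and -0.91 on log2 of signal plus the floor value, and past 2-fold with quantile normalization and with median centring, while the remaining 4 alternatives cannot change it. On the wrky40 array MSRB6 had the 65th lowest of the 7259 ratios, below the 5th percentile of those ratios, which was -0.45. MSRB5 was also below it there, with a log2 ratio of -0.66 and the 101st lowest place, so a low value on that array was not particular to MSRB6. That likeness depends on the floor. With the floor at the 60th percentile the ratio of MSRB5 became -0.09, while that of MSRB6 stayed between -0.75 and -0.65 under all 9 settings. On the double mutant array, in contrast to MSRB6, MSRB5 had a log2 ratio of 0.24 and MSRB3 of 0.51. MSRB3 was lowest relative to the wild type on the wrky18 array, at -0.65. Against the single mutants, MSRB6 on the double mutant array was 1.82-fold lower than on the wrky18 array (log2 ratio -0.86) and 1.23-fold lower than on the wrky40 array (-0.30).

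MSRB9 lay on the other side of the wild type on the double mutant array, where it was 1.49-fold higher (log2 ratio 0.57). It was 1.31-fold higher on the wrky60 array (0.39), 1.09-fold higher on the wrky18 array (0.13) and within 0.04 on the log2 scale of the wild type on the wrky40 and wrky53 arrays, with 0.02 and 0.04. With median centring the wrky40 value changed sign, to -0.01. The wrky60 value fell to 0.06 with the same setting, below that of wrky18 at 0.20, so it depends on the scaling of that array. MSRB9 reached 2-fold on 0 of 5 mutant arrays. At least 2-fold higher than the wild type were 0.715% of genes on the double mutant array, 0.0978% on wrky18, 0.0602% on wrky40, 0.128% on wrky53 and 6.41% on wrky60. Against the single mutants, MSRB9 on the double mutant array was 1.36-fold higher than on wrky18 and 1.47-fold higher than on wrky40.

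**Figure D3:**
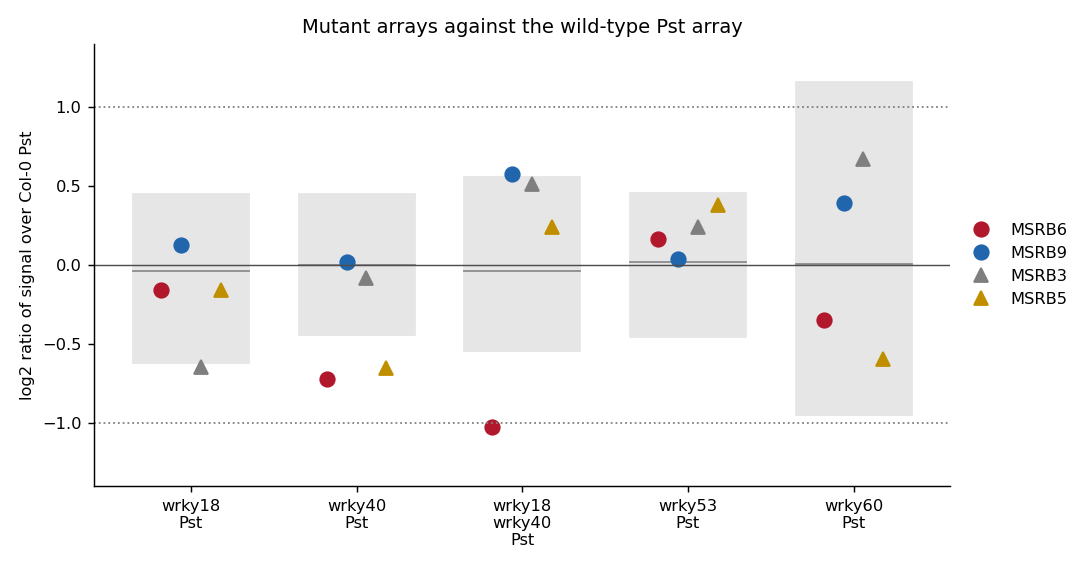
Log2 ratio of signal on each mutant array over the wild-type Pst array, with circles for MSRB6 and MSRB9, triangles for MSRB3 and MSRB5, a grey box from the 5th to the 95th percentile of the 7259 genes at or above the floor, a grey line at their median and dotted lines at 2-fold. MSRB6 lies below the box on the wrky40 and double mutant arrays, MSRB5 below it on wrky40 and MSRB3 below it on wrky18, and MSRB9 and MSRB3 lie near its upper edge on the double mutant array.

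The 2 genes therefore differed from array to array in how far they stood above mock. The fold over mock was larger for MSRB9 than for MSRB6 on all 6 Pst arrays, by 1.16-fold on wrky53, 1.27-fold in the wild type, 1.55-fold on wrky18, 2.11-fold on wrky60, 2.12-fold on wrky40 and 3.84-fold on the double mutant array. These are ratios of changes within each gene, since the levels of 2 probe sets cannot be set against each other. On the double mutant array, relative to the wild type after Pst, MSRB9 and MSRB6 lay 1.60 apart on the log2 scale, and 1.46 to 1.61 under all settings. Over the 6 Pst arrays alone the log2 signals of the 2 genes had Pearson r = -0.66 and Spearman rho = -0.54, and r = -0.72 over 5 of them without wrky60. Over all 7 arrays r was 0.81 but rho 0.04, so that the positive value rests on the mock array. These are descriptions of single arrays that differ in genotype.

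The spread of each gene over the Pst arrays can be set beside that of the other genes. MSRB6 had an SD of 0.45 on the log2 scale over the 6 Pst arrays, and 84.3% of the 7259 genes had a smaller one. MSRB9 had an SD of 0.24, with 38.2% of genes below it and a median over genes of 0.28. The wide spread was shared by MSRB3 and MSRB5, with SDs of 0.47 and 0.43 and 86.8% and 81.3% of genes below them. MSRB3 and MSRB5 were dimmer, with mean signals of 70.9 and 58.4 against 181.1 for MSRB6, and these shares take no account of signal level. Without the wrky60 array, the median over genes was 0.20, the SD of MSRB6 0.50 with 96.9% of genes below it, and the SD of MSRB9 0.24 with 64.1% below it, against 94.1% for MSRB3 and 92.4% for MSRB5. This spread holds differences between genotypes as well as between arrays.

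A closer background is given by the 137 genes at least 2-fold higher on the wild-type Pst array, since they were picked on that array and share it in each mutant ratio. Relative to the wild type they had a median log2 ratio of -0.18 on the double mutant array, -0.17 on wrky40, -0.09 on wrky18, 0.08 on wrky60 and 0.21 on wrky53. On the double mutant array, MSRB6 had the 3rd lowest ratio of the 137, of which 93 lay below 0 and 3 were at least 2-fold lower, while MSRB9 had the 7th highest. On the wrky40 array MSRB6 had the 8th lowest ratio, with 5 of the 137 at least 2-fold lower, and MSRB9 the 40th highest. On the wrky53 array both lay near the middle, MSRB6 as the 72nd highest and MSRB9 as the 93rd.

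Other parts of the redox and methionine pathways were looked at through fixed lists. Of 21 thioredoxin, thioredoxin reductase and glutaredoxin genes, which supply the electrons to methionine sulfoxide reductases, 9 had a probe set of their own and reached the floor. Their median log2 ratio in the wild type was -0.15, against 0.01 over the 7259 genes, with a range of -0.27 to -0.04. Of the 9, 0 were past 2-fold in either direction against mock on any Pst array or against the wild type on any mutant array, where 21.2% and 14.5% of the 7259 genes were, so the count of a list this short says little. The list does not hold GRX480 (ROXY19), a CC-type glutaredoxin that binds TGA factors, which is named here after its values were seen. Its signal was 17.7, below the floor, on the mock array and 78.7 to 151 (150.6) on the Pst arrays, and it was at least 3.57-fold higher in the wild type after Pst. NTRC, a chloroplast thioredoxin reductase joined to a thioredoxin domain, had signals of 286 (285.9) on the mock array and 264 (263.8) on the wild-type Pst array. GRXC2, a cytosolic glutaredoxin, had 1526 and 1453, and the m-type chloroplast thioredoxin ATHM2 had 1705 and 1441 on the same 2 arrays.

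Of 10 genes of methionine synthesis and use, 2 were measured. MGL, methionine gamma-lyase, which breaks methionine down, had signals of 117 (117.0) on the mock array, 206 (205.7) on the wild-type Pst array and 145 (144.6) to 261 (261.3) over the Pst arrays. It was 1.76-fold above mock in the wild type, and at least 2-fold above it on the wrky18 array, by 2.23-fold, and on the double mutant array, by 2.09-fold. CBL, cystathionine beta-lyase, which makes homocysteine for methionine, was 1.38-fold higher in the wild type. Its log2 ratio to mock was below 0 on wrky18 (-0.32) and wrky60 (-0.10). It was 0.12 on the double mutant array, 0.17 on wrky40 and 0.73 on wrky53. Of 16 genes for the removal of peroxide and superoxide, 3 were measured, with log2 ratios of -0.05 to 0.19 in the wild type, and with so few no count is read. They include GR1, a glutathione reductase, with 216 (216.2) on the mock array and 246 (246.5) on the wild-type Pst array. The oxidative stress marker AT2G21640 was the only 1 of 6 such markers at or above the floor, with signals of 93.9 on the mock array and 64.7 on the wild-type Pst array. For most genes of these lists no probe set of their own was used here, so the lists are not summaries of their pathways.

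The genes whose pattern over the 7 arrays was most like each member were taken by Pearson correlation of log2 signal, among the 2353 other genes that reached the floor in the mean and ranged at least 2-fold over the arrays. For MSRB6 they were AT2G43550, AT1G11440, AT5G04250, AT2G44940 and TBL26, with r from 0.96 to 0.97. AT2G43550 had a signal of 291 (291.4) on the mock array, 909 (909.2) on the wild-type Pst array and 686 (686.1) on the double mutant array, the lowest of its Pst signals. TBL26, a member of the trichome birefringence-like family, whose known members acetylate cell wall polysaccharides, had 22.9, 219 (219.2) and 140 (140.2) on the same arrays. The first of these lay close to the floor of 22.1, and the highest signal of TBL26 was 531 (531.3), on the wrky53 array. Within the 6 Pst arrays the 5 genes had r of 0.82 to 0.92 with MSRB6. They were picked over arrays that include these 6, so a high r there follows in part from the choice. The same limit applies to the values for MSRB9 below.

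For MSRB9 the most similar genes were JRG21, AT1G66760, AT5G05600, UGT74B1 and AT2G27830, with r from 0.98 to 0.99. JRG21, a jasmonate-regulated gene, had a signal of 114 (114.3) on the mock array, 995 (994.8) on the wild-type Pst array and 1210 (1209.97) on the double mutant array. Its highest signal was 1290 (1289.9), on the wrky18 array. UGT74B1, a glucosyltransferase of glucosinolate synthesis, had 267 (267.2), 603 (603.0) and 897 (897.0) on the mock, wild-type Pst and double mutant arrays. Within the 6 Pst arrays UGT74B1 had r = 0.95 with MSRB9, but the other 4 genes only 0.16 to 0.55, so that most of their likeness rests on the step from the mock array. In all, 48 of 2353 genes had r of at least 0.9 with MSRB6 and 49 with MSRB9, and MSRB9 itself was 114th in the order of likeness to MSRB6.

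**Figure D4:**
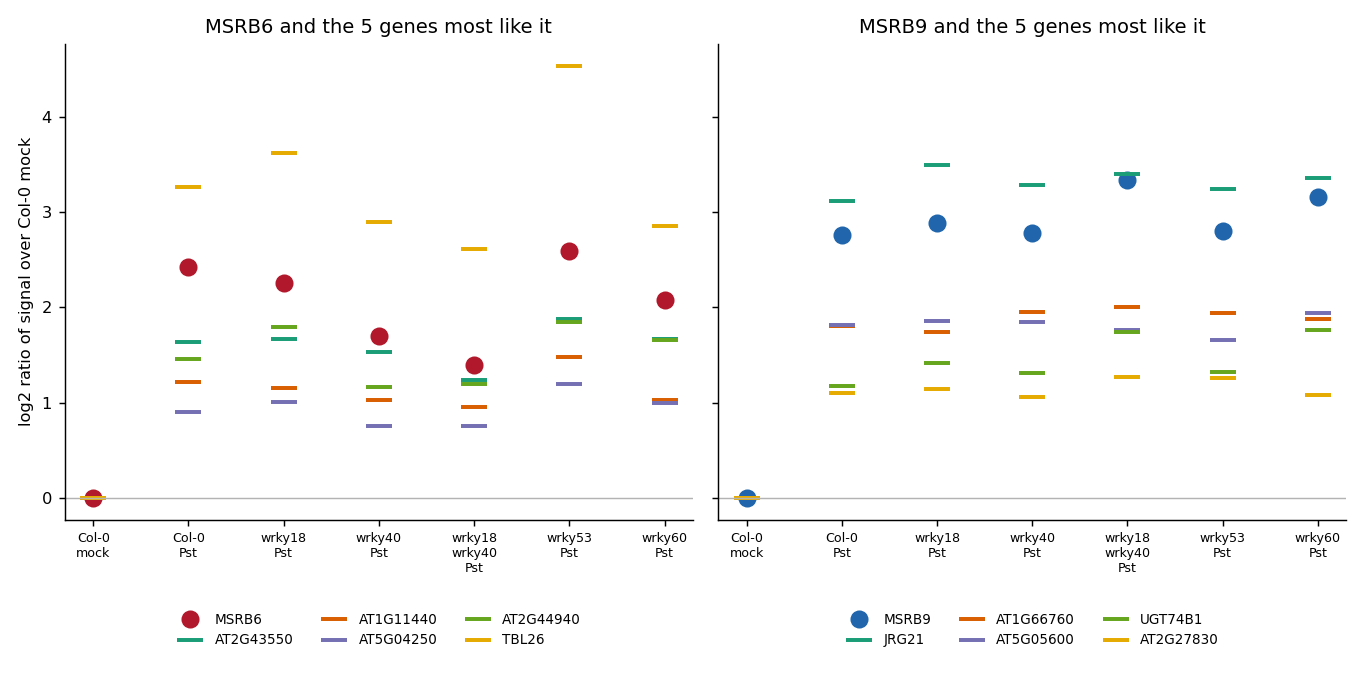
Log2 ratio of signal over the mock array for MSRB6 (left) and MSRB9 (right) as circles and for the 5 genes most like each as dashes, on the 7 arrays. The MSRB6 panel shows low values on the wrky40 and double mutant arrays, whereas in the other panel MSRB9 and UGT74B1 are highest on the double mutant and wrky60 arrays.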

How the data were processed

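The series was deposited as 1 table of signal intensities, linear in scale, with a column for each array. Per the submitters' processing notes the authors used MAS5, which summarises probes into probe sets and scales every array; its version and settings are not given in the sources used here. No further scaling was applied.

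Controls aside, the table held 22746 probe sets, of which the platform annotation tied 13513 to 1 gene. The TAIR10.1 gene table, used for names and gene order only, held 13436 of these. Where a gene had several probe sets the brightest was kept, which left 13286 genes, and 7259 of them reached the floor of 22.1 in the mean. Source names gave the mutant genotypes, and titles gave the wild type and the treatments. With 1 array per group, ratios were counted at 2-fold and no test was run, and the number of arrays limits the precision. The genes, lists and comparisons were chosen with earlier results of these data known. The text names MSRB6 and MSRB9, every other MSRB or MSRA gene with its own probe set, WRKY53, members of the other lists from among the 6 brightest, and the 5 genes most correlated with each member. Beyond these, values are given for GRX480, the tissue markers SBPASE, PRK and PYK10, and the pseudogene AT4G04820. The functions were tested on simulated data. Alternatives were a lower and a higher floor (25th and 60th percentile), the floor value added to each signal, quantile normalization, median centring, cyclic loess, averaging the probe sets of a gene, and, chosen after seeing the data, leaving out the wrky60 array. Software was R 4.3.3 with limma 3.58.1, and Python 3.11.15 with pandas 2.3.3 and numpy 2.4.6.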

Additional observations from a re-analysis of the deposited data

How the results depend on the processing

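No paired analysis was possible because every group holds 1 array with the same replicate number. MSRB6 and MSRB9 stayed at least 2-fold above mock on every Pst array under all 9 settings, with wild-type log2 ratios of 1.98 to 2.42 and 2.49 to 2.76. Of the 8 alternatives, 3 (the lower floor, averaging probe sets and leaving out wrky60) cannot change a ratio of MSRB6, MSRB9, MSRB3, MSRB5 or MSRA5, each of which has 1 probe set and no signal below the floor. Under the other 5, 272 of their 310 ratios changed, 270 of them by less than 1.5-fold, and the 2 exceptions are those of MSRB3 on the wrky18 array with the higher floor. Genes at least 2-fold higher and lower on the wild-type Pst array numbered 137 and 140, but 237 and 230 with a floor set by the 25th percentile, 77 and 83 by the 60th, and 83 and 84 with log2 of signal plus the floor value; raising the floor leaves fewer dim genes able to reach 2-fold. The 5 genes most like MSRB6 depended on the measure: 1 was shared when the wrky60 array was left out and 0 when the root mean square difference of log2 ratios replaced the correlation. For MSRB9, 4 and 1 were shared, the last being JRG21. With 1 array per group, no value here has an error.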
